A study of Homo sapiens with 15 samples.

Results

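The 10 genes described here encode the core of the machinery that carries newly made proteins into the endoplasmic reticulum (ER). They are the Sec61 channel (SEC61A1, SEC61B, SEC61G), its partners SEC62 and SEC63, the 4 subunits of the translocon-associated protein (TRAP) complex (SSR1, SSR2, SSR3, SSR4) and the translocating chain-associating membrane protein TRAM1. They were taken from the deposited table by symbol, by a rule with no measured value in it. The set was, however, chosen with earlier results of these data known. All 10 were found among the 59608 genes listed. All passed the filter on low values, a mean of at least 10, that left 13561 genes for testing. The cells were MDA-MB-231, an established human breast cancer line, grown as a 2D culture and given either 0.1% DMSO, the vehicle and negative control, or ZJ-101 at 0.5, 5, 50 or 500 nM. Superstolide A is a macrolide found in a sea sponge, and ZJ-101 is a truncated version of it made by synthesis. Every dish was harvested after 6 h. Each of the 5 groups had 3 replicate dishes, which makes 15 libraries of poly-A RNA.

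The Sec61 channel is a pore in the ER membrane through which secretory proteins pass into the lumen and from which membrane proteins leave sideways into the lipid. Ribosomes dock onto it while they are still making the protein, and the TRAP complex and TRAM1 sit beside the pore and help weaker signal sequences to open it. SEC62 and SEC63 join the channel for clients that need extra help, and the J domain of SEC63 recruits the lumenal chaperone BiP, which pulls on the arriving chain.

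SEC62 rose at the upper doses of ZJ-101, and the TRAP subunits moved apart. The subunit SSR3 rose and the subunit SSR1 fell, so that SSR3 RNA went from 0.724 ± 0.0126 (SD, n = 3) of the SSR1 count in DMSO to 0.983 ± 0.013 (SD, n = 3) at 500 nM. The 3 genes of the Sec61 channel itself, as well as SEC63, SSR2, SSR4 and TRAM1, did not pass the test against DMSO at any dose.

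Normalized counts, the unit used throughout, are reads per gene divided by the size factor of the library, so that libraries of different depth can be compared. Between 12415519 and 15284762 reads fell on genes in each library, and the 3 libraries at 50 nM were the shallowest, with 12415519 to 12623863. The line was checked against markers listed for it: VIM, CD44, CAV1, AXL and FOSL1 each had at least 4462 normalized counts in every library, while SPARC, also listed as present, was near 0 (1.06 to 6.18). Of the markers listed as low, ESR1 had at most 4.3, and PGR, GATA3, CDH1 and EPCAM had means of 13.7 to 290. KRT8 went against the list with a mean of 11822. The library of 0.5 nM replicate 2 stood apart. Its 1995 genes with transcripts of at most 1500 bases lay a median of 0.204 above their mean over all libraries on the log2 scale, against -0.050 to 0.038 in the other 14. SEC61B, SEC61G, SSR2 and SSR4 are such short genes. The counts of calls and medians of the 10 genes that this library moves are given with and without it, as are correlations among them unless stated. In bulk samples of 1 cell line such as these, a change in part of the cells and a smaller change in all of them cannot be told apart.

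Promoter sequences are shown for the 3 genes that changed, so that the DNA ahead of the start site can be set beside the response. The sequences are those of RefSeq on GRCh38.p14, from 250 bases before to 50 bases after the start. Capitals mark the letters CCAAT and CCACG on either strand, and the stretch CCACGTCA, which is the unfolded protein response element (UPRE, TGACGTGG) read on the opposite strand and contains CCACG. SEC62 lies at chr3:169966557-169966856 on the plus strand, SSR3 at chr3:156555068-156555367 on the minus strand (the first of its 3 listed starts) and SSR1 at chr6:7313150-7313449 on the minus strand.
SEC62: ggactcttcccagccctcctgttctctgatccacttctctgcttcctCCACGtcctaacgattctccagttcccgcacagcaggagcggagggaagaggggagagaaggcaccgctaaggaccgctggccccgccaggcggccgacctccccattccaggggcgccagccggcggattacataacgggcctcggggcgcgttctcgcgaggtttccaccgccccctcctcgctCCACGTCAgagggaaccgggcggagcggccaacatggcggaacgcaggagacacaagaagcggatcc
SSR3: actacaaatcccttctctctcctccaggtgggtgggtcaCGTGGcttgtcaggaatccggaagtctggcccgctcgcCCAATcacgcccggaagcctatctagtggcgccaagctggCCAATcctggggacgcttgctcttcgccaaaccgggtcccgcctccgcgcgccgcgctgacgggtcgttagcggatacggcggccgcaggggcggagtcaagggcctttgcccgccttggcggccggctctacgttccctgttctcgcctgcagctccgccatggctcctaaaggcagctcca
SSR1: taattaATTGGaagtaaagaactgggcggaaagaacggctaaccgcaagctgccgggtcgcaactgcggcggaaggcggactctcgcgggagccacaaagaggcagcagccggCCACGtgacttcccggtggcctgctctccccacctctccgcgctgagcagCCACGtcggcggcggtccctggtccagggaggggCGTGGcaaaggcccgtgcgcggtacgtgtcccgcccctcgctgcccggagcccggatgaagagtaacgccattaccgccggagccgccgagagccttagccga
The SEC62 window held the UPRE letters at positions -17 to -10 from its start, and CCACG also at -203 to -199. The SSR3 window held CCAAT at -173 to -169 and at -133 to -129, with CCACG on the opposite strand at -211 to -207. SSR1 had CCAAT on the opposite strand at -244 to -240 and CCACG at -137 to -133, at -87 to -83 and, on the opposite strand, at -53 to -49.

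The 6 motifs were searched on both strands in the 13 windows that the table lists for 9 of the genes, and in all 35116 windows. The UPRE (TGACGTGG) was in 3 of the 13 windows, those of SEC62, the third start of SSR3 and the second start of SSR4, and in 0.729% of all windows. The ER stress element ERSE (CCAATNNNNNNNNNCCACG, made of CCAAT and CCACG with a spacer between them) was in 0 of the 13 and 0.0769% of all. ERSE-II (ATTGGNCCACG, which also contains both boxes) was in 0 of the 13 and 0.0541% of all. The heat-shock element (GAA, its inverse TTC and GAA again, each pair NN apart) was likewise in 0 of the 13 and in 0.49% of all windows. The short boxes were common, CCAAT in 7 of 13 and 34.6% of all, and CCACG in 11 of 13 and 38.1% of all. A match of letters is a description of the window, and several starts of a gene share sequence.

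In the DMSO libraries the 10 genes differed about 10-fold in level per kilobase of transcript. SEC61G (2246 ± 37.2 normalized counts per kilobase, SD, n = 3) and SEC61B (2195 ± 96.0) were the highest and overlapped each other. They encode the small tail-anchored subunits of the channel. Below them came SEC61A1 (1462 ± 48.2), SSR4 (1431 ± 50.1), SSR2 (1357 ± 63.4) and TRAM1 (1272 ± 25), and in this order each overlapped its neighbour. SSR3 (745 ± 12.4), SSR1 (451 ± 5.29), SEC62 (398 ± 3.87) and SEC63 (227 ± 10.0) followed with no overlap between neighbours. The 4 subunits of TRAP thus did not have equal RNA levels per length, with SSR4 above SSR1 by more than the spread of their libraries. Lengths are those of the canonical transcript in GENCODE release 44, which run from 425 bases for SEC61G to 9661 bases for SSR1, and the level of a gene with other 3′ ends depends on that choice.

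**Figure D1:**
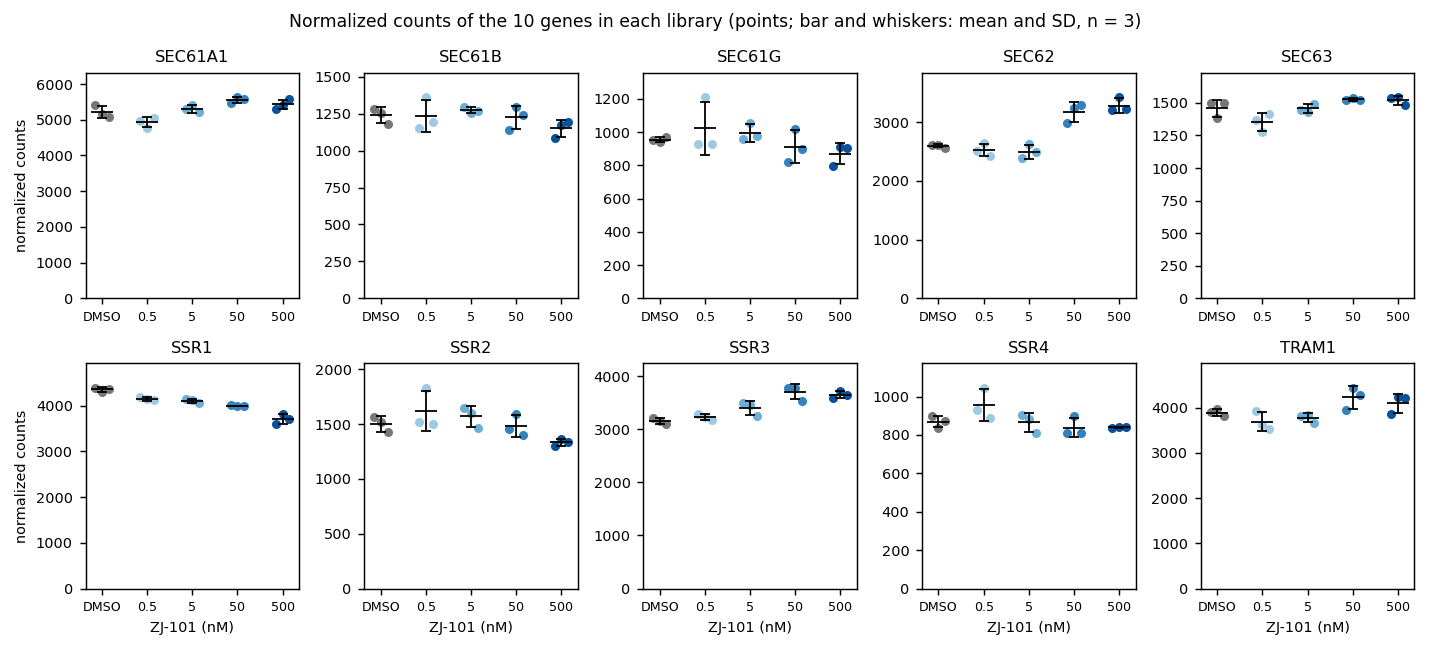
Normalized counts (vertical axis, from 0, own scale for each gene) of the 10 genes in the 15 libraries by dose of ZJ-101 in nM, with points for libraries and bars and whiskers for mean and SD (n = 3). SEC62 and SSR3 are higher at 50 and 500 nM than in DMSO, SSR1 is lower, and 0.5 nM replicate 2 is the highest point for SEC61B, SEC61G, SSR2 and SSR4.

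Each dose was compared with DMSO by limma, with all groups in 1 fit, on log2(normalized count + 1), and p was adjusted for the 13561 genes tested (Benjamini-Hochberg, BH), with a call at an adjusted p under 0.05. All 4 comparisons share the DMSO libraries. At 500 nM, 2 of the 10 genes were higher (SEC62, SSR3) and 1 was lower (SSR1), beside 7.69% higher and 10.1% lower among all genes tested. With a trend on transcript length and GC content removed from each library, the count of 3 became 5, as SSR2 (adjusted p = 0.00736, limma) and TRAM1 (0.0323) joined. The shares of all genes above are those before this removal, and the share after it is not given. At 50 nM, the counts were again 2 higher and 1 lower, beside 2.29% and 3.71% of all genes. The median log2 fold change of the 10 genes was 0.0039 at 500 nM and 0.025 at 50 nM, and that of all genes was 0.0027 and -0.0023.

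At the lower doses none of the 10 genes passed in the fit described above. At 0.5 nM, limma called 0 higher and 0 lower (0.251% and 0.922% of all genes). An unadjusted p under 0.05 was reached by 1 of the 10 genes, SEC63, beside 827 genes higher and 1170 lower of the 13561 tested. At 5 nM the counts were also 0 and 0 (0.465% and 1.71% of all genes). Here 2 of the 10 genes, SSR3 and SSR1, had an unadjusted p under 0.05, beside 672 higher and 1077 lower of the 13561. The edgeR and DESeq2 tests on recovered reads called 0 at both of these doses, while with the length and GC trend removed limma called 1 gene at 5 nM, SSR3 (log2 0.14, adjusted p = 0.0432). The medians over the 10 genes were -0.023 at 0.5 nM and 0.011 at 5 nM, beside -0.0069 and -0.0003 for all genes. Without 0.5 nM replicate 2, limma again called 0 of the 10 genes at 0.5 nM, and their median was -0.059. The log2 difference of SEC61G at 0.5 nM turned from 0.087 to -0.040 without that library, and that of SSR2 went from 0.103 to 0.010. That of SSR4 went from 0.132 to 0.063 and that of SEC63 from -0.110 to -0.069. SEC61B went from -0.006 to -0.078 and SEC62 from -0.041 to -0.074.

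**Figure D2:**
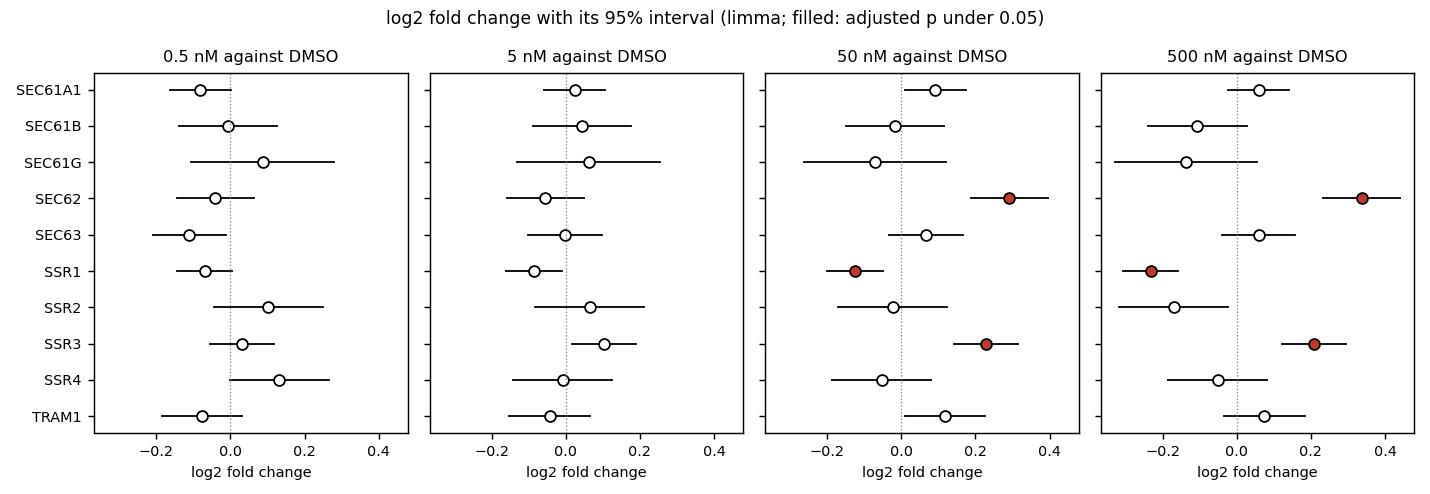
The log2 fold change of each of the 10 genes at each dose against DMSO (horizontal axis) with its 95% interval from limma; filled points have an adjusted p under 0.05. Filled points are SEC62, SSR3 and SSR1 at 50 and 500 nM, and every interval at 0.5 and 5 nM belongs to an open point.

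SEC62 encodes the membrane protein that works with SEC63 on short and slow precursors and that also serves as a receptor for the turnover of ER membrane by autophagy. The gene lies at chr3:169966635-169998373 on the plus strand of GRCh38. Its normalized counts were 2609, 2610 and 2566 in DMSO, 2501, 2642 and 2430 at 0.5 nM, and 2388, 2622 and 2486 at 5 nM. They were 2985, 3248 and 3299 at 50 nM and 3200, 3422 and 3217 at 500 nM. All 6 libraries of the upper doses lay above all 9 of DMSO and the lower doses. The log2 fold change was 0.29 at 50 nM (SE 0.05, BH-adjusted p = 7.2e-04 in limma) and 0.34 at 500 nM (SE 0.05, adjusted p = 6.4e-05), the latter a 1.26-fold rise.

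The rise of SEC62 came between 5 and 50 nM. From 5 to 50 nM its log2 difference was 0.35 (95% interval 0.24 to 0.45, BH-adjusted p = 2.1e-04 in limma), whereas from 50 to 500 nM it was 0.05 (-0.06 to 0.15, adjusted p = 0.76). SEC62 was the only one of the 10 genes called for the step from 5 to 50 nM, which gave 1 higher and 0 lower beside 2.62% and 2.39% of all genes. Without 0.5 nM replicate 2, which bears on this step only via the common variance of the fit, the count was 3, with SSR3 (adjusted p = 0.0476, limma) and TRAM1 (adjusted p = 0.0427, limma) added. Without 50 nM replicate 1 it was 2, with TRAM1 (adjusted p = 0.0416, limma) added, and DESeq2 likewise called SEC62 and TRAM1. The shares of all genes given for this step are those of the main fit, and shares under these refits are not given. For the step from 0.5 to 5 nM limma called 0 of the 10 genes higher and 0 lower (0.0295% and 0.0885% of all genes). An unadjusted p under 0.05 was reached by 3 of the 10, beside 518 genes higher and 561 lower of the 13561 tested. Without 0.5 nM replicate 2 this step again gave 0 calls, but its median over the 10 genes went from 0.009 to 0.060 and the sign turned for SEC61G (-0.026 to 0.101), SSR2 (-0.039 to 0.054) and SEC62 (-0.015 to 0.018). For the step from 50 to 500 nM limma called 0 and 0 (0.479% and 1.8% of all genes). The unadjusted p was under 0.05 for 1 of the 10, SSR1, beside 759 genes higher and 1014 lower of the 13561 tested. The edgeR and DESeq2 tests called 0 for the steps from 0.5 to 5 nM and from 50 to 500 nM.

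SEC63 encodes the J-domain partner of SEC62, at chr6:107867756-107958208 on the minus strand. Its counts were 1496, 1385 and 1496 in DMSO, 1367, 1275 and 1414 at 0.5 nM, and 1446, 1430 and 1495 at 5 nM. They were 1520, 1540 and 1520 at 50 nM and 1534, 1542 and 1481 at 500 nM. The libraries at 50 nM lay narrowly above those of DMSO, and those at 500 nM overlapped them. The log2 difference at 500 nM was 0.06 (95% interval -0.04 to 0.16, BH-adjusted p = 0.46 in limma), so that a change of the size seen for SEC62 lay outside its interval. The ratio of SEC62 to SEC63 normalized counts was 1.78 ± 0.091 in DMSO, 1.87 ± 0.18 at 0.5 nM, 1.72 ± 0.10 at 5 nM, 2.08 ± 0.11 at 50 nM and 2.16 ± 0.067 at 500 nM (SD, n = 3 each). The ratios at 50 and 500 nM lay above every ratio of DMSO and 5 nM, but at 0.5 nM replicate 2 the ratio was 2.07, within the range at 50 nM. The other 2 libraries at 0.5 nM had ratios of 1.83 and 1.72.

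SSR3 encodes the gamma subunit of TRAP, the subunit with most of its mass in the membrane and the cytosol, at chr3:156539553-156555149 on the minus strand. Its counts were 3210, 3154 and 3104 in DMSO, 3277, 3226 and 3167 at 0.5 nM, and 3488, 3448 and 3246 at 5 nM. They were 3780, 3784 and 3538 at 50 nM and 3593, 3716 and 3638 at 500 nM. Libraries of DMSO and 0.5 nM overlapped, those at 5 nM lay above DMSO, and those at 50 and 500 nM lay above all others and overlapped each other. The log2 fold change was 0.10 at 5 nM (SE 0.04, BH-adjusted p = 0.26 in limma), 0.23 at 50 nM (SE 0.04, adjusted p = 0.0013) and 0.21 at 500 nM (SE 0.04, adjusted p = 0.0012). Of the exon bases of SSR3, 20.8% lie within an antisense gene, ENSG00000287916, and without the strand of the counting, reads of the pair cannot be told apart there.

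SSR1 encodes the alpha subunit of TRAP, a calcium-binding membrane glycoprotein, at chr6:7268306-7347446 on the minus strand. Its counts were 4399, 4300 and 4373 in DMSO, 4197, 4144 and 4117 at 0.5 nM, and 4144, 4116 and 4059 at 5 nM. They were 4007, 3986 and 3994 at 50 nM and 3603, 3826 and 3705 at 500 nM. The DMSO libraries were the highest 3 of the 15, the 500 nM libraries were the lowest 3, and among the groups in between the ranges of 0.5 and 5 nM overlapped and that of 50 nM lay below them. The log2 fold change was -0.07 at 0.5 nM (BH-adjusted p = 0.38 in limma), -0.09 at 5 nM (adjusted p = 0.30), -0.12 at 50 nM (SE 0.04, adjusted p = 0.043) and -0.23 at 500 nM (SE 0.04, adjusted p = 1.1e-04). At 500 nM the mean fell by 14.8% from 4357 to 3711.
The call of SSR1 at 50 nM was marginal. It was lost with edgeR (adjusted p = 0.052). In limma it was lost with no filter on low values (adjusted p = 0.15) and with the same total per library (0.058). A block by replicate number (0.054) and removal of the length and GC trend (0.36) also ended the call. It was also lost without any 1 of the 3 DMSO libraries, the 3 at 5 nM, the 3 at 50 nM, 0.5 nM replicate 1 or 500 nM replicate 3, and over all libraries left out in turn the adjusted p from limma ran from 0.0173 to 0.146. Its log2 fold change stayed between -0.13 and -0.12 in these leave-one-out fits.

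The ratio of SSR3 to SSR1, a pair chosen after the values were seen, needs no scaling between libraries and is given as a description. It was 0.730, 0.734 and 0.710 in DMSO, 0.781, 0.778 and 0.769 at 0.5 nM, and 0.842, 0.838 and 0.80 at 5 nM. It was 0.943, 0.949 and 0.886 at 50 nM and 0.997, 0.971 and 0.982 at 500 nM. The ranges of the 5 groups did not overlap, and each dose lay above the one before it.

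**Figure D3:**
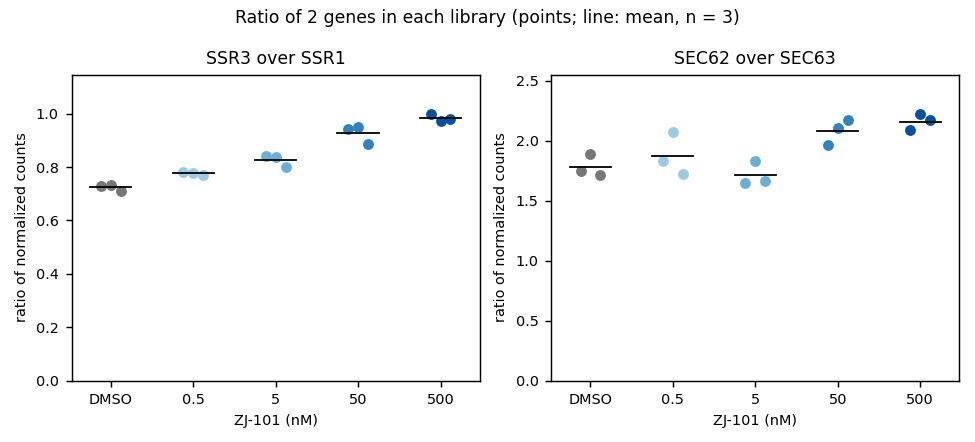
Ratio of the normalized counts of SSR3 to SSR1 and of SEC62 to SEC63 in each library (vertical axes, from 0) by dose of ZJ-101 in nM, with lines at the group means (n = 3). The SSR3 to SSR1 ratio runs from 0.710 in DMSO to 0.997 at 500 nM with no overlap between groups, whereas the SEC62 to SEC63 ratio overlaps between DMSO, 0.5 and 5 nM.

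SSR2 encodes the beta subunit of TRAP, at chr1:156009048-156020951 on the minus strand. Its counts were 1564, 1518 and 1426 in DMSO, 1522, 1834 and 1504 at 0.5 nM, 1650, 1602 and 1465 at 5 nM, 1453, 1591 and 1397 at 50 nM and 1305, 1364 and 1335 at 500 nM. The 500 nM libraries were the lowest 3 of the 15 and did not overlap DMSO, but the spread within the other groups was wide. The log2 difference at 500 nM was -0.17 (95% interval -0.32 to -0.02, unadjusted p = 0.026, BH-adjusted p = 0.11 in limma) and did not pass. Without 0.5 nM replicate 2, where SSR2 had its highest count, it passed with the same log2 difference of -0.17 (adjusted p = 0.0225, limma). That library bears on this comparison only via the common variance of the fit. The count at 500 nM was then 4 genes of the 10 in place of 3, and the share of all genes in that refit is not given. Over all alternatives the adjusted p of SSR2 ran from 0.00736 to 0.293.

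SSR4 encodes the delta subunit of TRAP, at chrX:153793516-153798499 on the plus strand. Its counts were 899, 839 and 871 in DMSO, 929, 1047 and 888 at 0.5 nM, 905, 882 and 809 at 5 nM, 808, 897 and 812 at 50 nM and 837, 841 and 840 at 500 nM. The libraries of each treated group overlapped those of DMSO. At 500 nM the log2 difference was -0.05 (95% interval -0.18 to 0.08, BH-adjusted p = 0.66 in limma). In TRAP, 1 subunit thus rose, 1 fell and the other 2 did not pass at 500 nM.

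SEC61A1, the pore-forming subunit of the channel, lies at chr3:128051641-128071705 on the plus strand. Its counts were 5407, 5171 and 5073 in DMSO, 4971, 4772 and 5056 at 0.5 nM, 5288, 5417 and 5207 at 5 nM, 5457, 5628 and 5586 at 50 nM and 5312, 5415 and 5574 at 500 nM. The libraries at 0.5 nM lay below DMSO, those at 50 nM above, and those at 5 and 500 nM overlapped it. The log2 differences were small, -0.08 at 0.5 nM (BH-adjusted p = 0.36 in limma), 0.09 at 50 nM (adjusted p = 0.22) and 0.06 at 500 nM (95% interval -0.02 to 0.14, adjusted p = 0.35).

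SEC61B, the beta subunit, lies at chr9:99222064-99230615 on the plus strand. Its counts were 1283, 1253 and 1178 in DMSO, 1154, 1361 and 1191 at 0.5 nM, 1299, 1256 and 1271 at 5 nM, 1139, 1292 and 1244 at 50 nM and 1086, 1174 and 1191 at 500 nM. All treated groups overlapped DMSO. SEC61G, the gamma subunit, lies at chr7:54752250-54759974 on the minus strand. Its counts were 951, 941 and 972 in DMSO, 930, 1209 and 927 at 0.5 nM, 958, 1058 and 974 at 5 nM, 822, 1019 and 897 at 50 nM and 797, 908 and 905 at 500 nM. The 500 nM libraries lay below those of DMSO, and the other groups overlapped it. At 500 nM the log2 difference was -0.11 for SEC61B (95% interval -0.24 to 0.03, BH-adjusted p = 0.29 in limma) and -0.14 for SEC61G (-0.33 to 0.06, adjusted p = 0.36), intervals that include both 0 and a fall of the size seen for SSR1.

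TRAM1, which contacts signal sequences beside the channel, lies at chr8:70573218-70608416 on the minus strand. Its counts were 3896, 3961 and 3809 in DMSO, 3922, 3617 and 3536 at 0.5 nM, 3817, 3844 and 3660 at 5 nM, 3950, 4442 and 4276 at 50 nM and 3859, 4227 and 4209 at 500 nM. Of the 6 libraries at the upper doses, 4 were above all others, while replicate 1 of each lay within the range of DMSO. The log2 difference was 0.12 at 50 nM (unadjusted p = 0.035, BH-adjusted p = 0.24 in limma) and 0.07 at 500 nM (95% interval -0.03 to 0.18, adjusted p = 0.37). With the length and GC trend removed it was 0.13 at 500 nM and passed (adjusted p = 0.0323, limma).
Counted over libraries, 5 of the 10 genes did not overlap between 500 nM and DMSO, 2 of them higher and 3 lower, and 38.5% of all genes tested did not overlap in either direction.

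A line fitted by limma through the 15 libraries over dose rank gave the same 3 genes. It was 0.10 per step for SEC62 (SE 0.019, BH-adjusted p = 5.8e-04 in limma), 0.06 for SSR3 (SE 0.010, adjusted p = 2.0e-04) and -0.05 for SSR1 (SE 0.0087, adjusted p = 2.3e-04). The count of 2 higher and 1 lower stands beside 8.23% higher and 9.33% lower among all genes. SEC61A1 (0.03, adjusted p = 0.079), SSR2 (-0.05, adjusted p = 0.089) and TRAM1 (0.03, adjusted p = 0.10) came next in the order of limma's p and did not pass. SEC61A1 passed without DMSO replicate 1 (adjusted p = 0.0346, limma) and SSR2 without DMSO replicate 3 (adjusted p = 0.032, limma). Over the 12 treated libraries alone the count was 7 in place of 3, with SEC61A1 (adjusted p = 0.031, limma), SEC63 (0.0179), SSR2 (0.0108) and TRAM1 (0.0359) added. It was also 7, with the same 4 added, when the length and GC trend was removed. The shares of all genes above are those of the main fit, and shares under these alternatives are not given. For SEC62 a slope per step is a coarse summary, since its log2 difference from DMSO was -0.06 at 5 nM (95% interval -0.16 to 0.05) and the rise came at the next dose.

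The short genes had their highest counts in 0.5 nM replicate 2. SEC61B, SEC61G, SSR2 and SSR4, with transcripts of 425 to 1108 bases, lay there 0.154 to 0.353 above their own mean on the log2 scale. The 6 longer genes, of 3056 to 9661 bases, ranged from -0.196 to 0.030 in that library. Across the 15 libraries the Pearson r of log2 values was 0.826 for SEC61G and SSR2, 0.821 for SEC61B and SEC61G, and 0.804 for SSR2 and SSR4. Pairs of long genes reached 0.798 for SEC61A1 and SEC63 and 0.795 for SEC62 and TRAM1, while SEC62 and SSR1 (-0.735) and SSR1 and SSR3 (-0.728) ran in opposite directions. Without 0.5 nM replicate 2 the r of the 3 short pairs was 0.695, 0.762 and 0.642 in the same order, that of SEC61A1 and SEC63 was 0.663, and the other 3 moved by less, to 0.810, -0.732 and -0.727. The lowest r of all pairs, -0.750, was that of a long and a short gene, SEC63 and SSR4. It was not computed without that library. These are descriptions over libraries that share groups, and the part of transcript length in them was not tested.

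**Figure D4:**
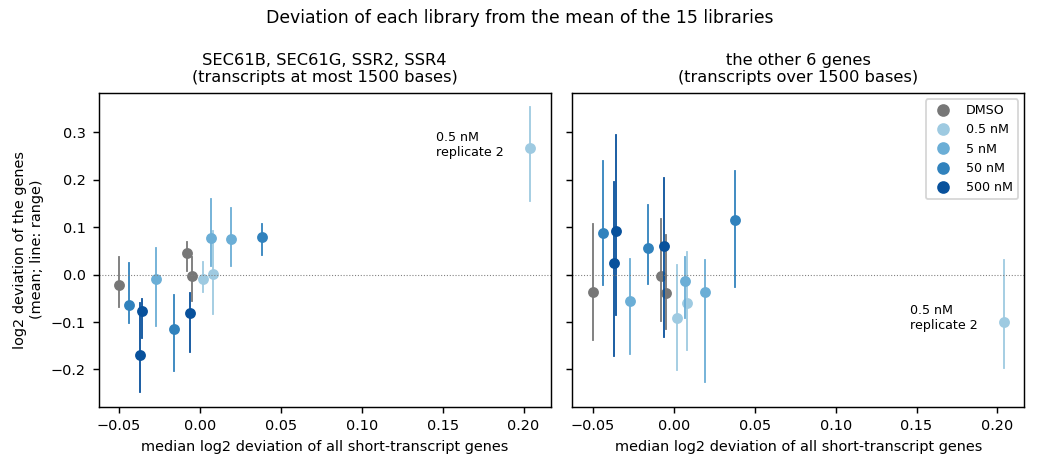
Log2 deviation of the 4 short and the 6 long genes from their mean over the 15 libraries (vertical axes, point for the mean and line for the range over genes) against the median deviation of all genes with transcripts of at most 1500 bases (horizontal axes), 1 point per library. The library of 0.5 nM replicate 2 lies apart at 0.204, with all 4 short genes between 0.154 and 0.353.

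The genes whose pattern over the 15 libraries was most like that of 3 of the genes were found by Pearson correlation of log2(normalized count + 1). For SEC61A1 they were WDR81 (r = 0.883), SRPRA, a subunit of the receptor that brings ribosomes to the channel (0.880), and RGMB-AS1 (0.875). WDR81 and RGMB-AS1 were low, with means of 86.5 and 30.2 normalized counts over the 15 libraries. SEC61A1 itself did not pass against DMSO at any dose, and shared regulation was not tested. For SSR1 they included CD164 (0.969) and EFEMP1 (0.968). For SEC62 they were SLC30A6 (0.972) and the cytosolic J-domain chaperones DNAJB4 (0.961) and DNAJA1 (0.955). These values are over all 15 libraries, 0.5 nM replicate 2 included, and were not computed without it.

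The other genes of import into the ER were read from a list of 47, which holds the signal recognition particle and its receptor, the signal peptidase, BiP with its exchange factors, translocon paralogs, the multipass translocon, the ER membrane protein complex and the routes for tail-anchored proteins. Of its 45 tested genes, 5 were higher and 4 were lower at 500 nM, 36 did not pass, and the median log2 fold change was 0.035. Among all genes tested, 7.69% were higher and 10.1% lower, and the median was 0.0027. With each library left out the count of 9 ran from 7 to 11, and with only the 2 groups in the fit it was 15 (9 higher and 6 lower, beside 11.4% and 12.8% of all genes). Shares of all genes with a library left out are not given. The other 2, SERP2 and WDR83OS, were listed at 0 in every library. Among those past the threshold, TRAM2, the paralog of TRAM1, had the largest rise, from 4227 ± 68.6 normalized counts in DMSO to 6510 ± 278 at 500 nM (SD, n = 3, log2 fold change 0.62, BH-adjusted p = 3.7e-07 in limma), beside 0.07 for TRAM1. SRPRB, the membrane anchor of the receptor for the signal recognition particle, went from 559 to 727 (log2 0.38, adjusted p = 0.0010) and CCDC47, a subunit of the multipass translocon, from 1610 to 2086 (log2 0.37, adjusted p = 1.4e-06). Among the falls, HSPA5, which encodes BiP, the chaperone that SEC63 recruits, dropped from 14143 ± 313 to 5439 ± 190 (log2 -1.38, adjusted p = 1.5e-13). EMC1 of the ER membrane protein complex had a log2 fold change of -0.48 (adjusted p = 3.7e-06) and HYOU1, an exchange factor of BiP, of -0.41 (adjusted p = 1.8e-05). The log2 fold change of SEC63 over the same groups was 0.06, and that of SEC62 was 0.34.

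**Figure D5:**
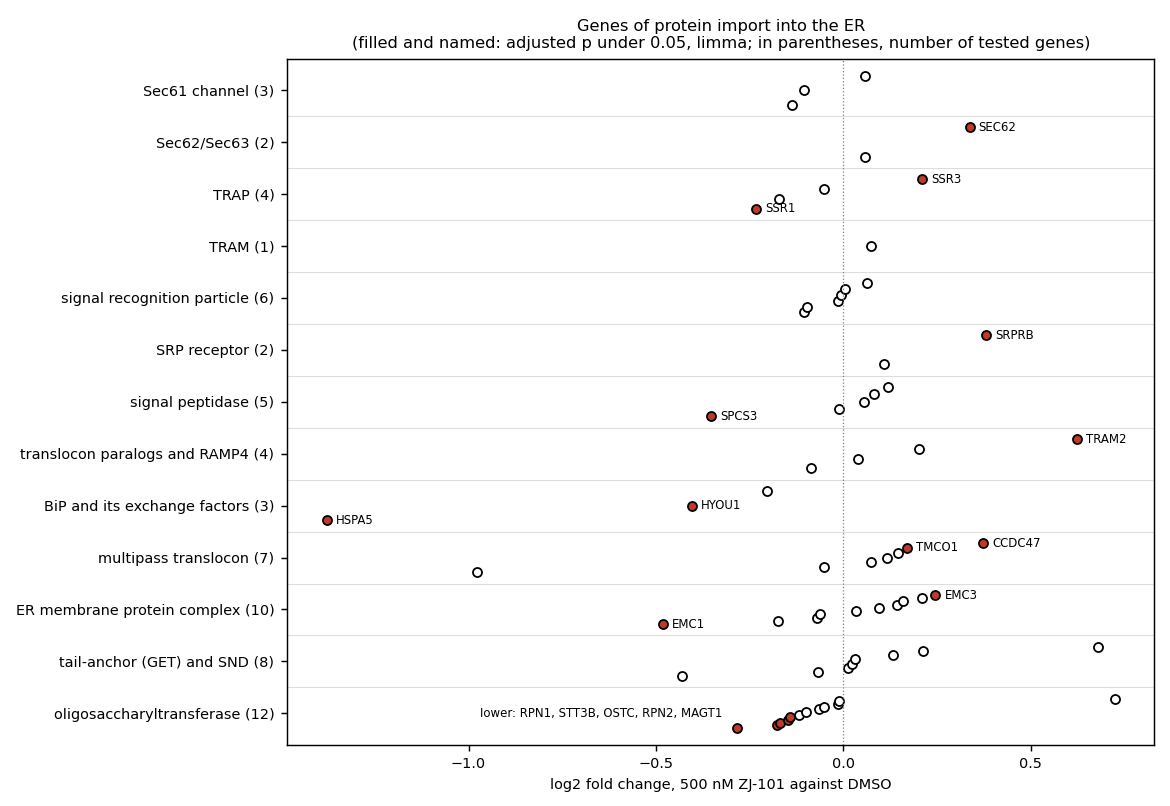
The log2 fold change at 500 nM against DMSO (horizontal axis) of the tested genes of import into the ER and of the oligosaccharyltransferase, 1 row per role, with the number of tested genes in parentheses; filled and named points have an adjusted p under 0.05 in limma. SEC62 and SSR3 lie to the right and SSR1 to the left of 0, within 0.34 of it, while HSPA5 lies at -1.38 and TRAM2 at 0.62.

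The oligosaccharyltransferase, which adds N-glycans to chains as they leave the channel and sits next to TRAP, had 12 tested genes. At 500 nM 5 of these fell and 7 did not pass, with a median log2 fold change of -0.11. Of all genes tested 10.1% were lower, with a median of 0.0027. RPN1, also called ribophorin I, fell from 4201 ± 61.1 to 3449 ± 8.93 (SD, n = 3, log2 -0.28, BH-adjusted p = 1.5e-04 in limma). STT3B, a catalytic subunit, had a log2 fold change of -0.18 (adjusted p = 0.011) and OSTC, which links the complex to the channel, of -0.17 (adjusted p = 0.038). The count was 3 without DMSO replicate 1, DMSO replicate 2 or 500 nM replicate 3, and 2 without DMSO replicate 3. Shares of all genes in these refits are not given. At 500 nM the 95% interval of RPN1 (-0.38 to -0.19) overlapped that of SSR1 (-0.31 to -0.16).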

How the data were processed

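RNA of MDA-MB-231 cells was measured in 15 libraries, with groups taken from the sample labels. The authors mapped paired 150 bp reads to hg38 (HISAT2), assigned them to genes (htseq-count of HTSeq) and divided the counts by DESeq2 size factors. The deposited values are therefore a normalized signal (reads divided by a size factor), not raw counts. The annotation was a GENCODE release that was current at the time. Its number, the tool versions and the strandedness of the counting are not given in the sources used here. 1 line that holds doses and no gene was left out. Dividing by the smallest step of each library gave whole reads for 100% of values within 0.001. The chi-square between replicates, per degree of freedom, was 2.04 to 16.5, so none was a duplicate. Genes whose mean reached 10 (13561) were tested by limma 3.58.1 in R 4.3.3 on log2(normalized count + 1), a scale that understates changes of low genes, with a mean-variance trend, Benjamini-Hochberg adjustment and a threshold of 0.05.

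The 10 genes are picked by symbol and not by a measured value, but this set and the gene lists were chosen with earlier results of these data known. Besides the 10 genes, the text names the 3 largest rises and falls past the threshold at 500 nM in each of the import and oligosaccharyltransferase lists, the 3 genes most correlated with SEC61A1, SSR1 and SEC62, and the cell line's markers. 1 gene that this rule gives is not reported here. Alternatives were pseudocounts of 0.5 and 5, no filter or a minimum mean of 50, blocks by replicate number, TMM scaling, the same total per library, edgeR 4.0.16 and DESeq2 1.42.0 on the recovered reads, an adjusted p under 0.1, each library left out, only the groups compared and the 12 treated libraries. Removal of a length and GC trend was added after the data were seen. Positions and overlaps are from GENCODE release 44 on GRCh38. A search with blastn 2.17.0+ found 0 other genes whose transcripts matched at least 50% of that of any of the 10 genes with 95% identity.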

Additional observations from a re-analysis of the deposited data

How the results depend on the processing

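Of 80 values (10 genes in 8 contrasts), each refitted under 27 alternatives, 10 were called. Of these, 9 kept their call in every alternative, the exception being SSR1 at 50 nM, and 0 reversed. Of the other 70, 61 stayed uncalled throughout and 18 changed sign. Counts of the 10 genes past the threshold that moved by over 1.5 times, or from 0, were these. With length and GC trends removed, chosen after seeing the data, the count at 5 nM was 1 (SSR3) in place of 0, at 500 nM 5 in place of 3 (SSR2 and TRAM1 joined), and by the slope 7 in place of 3. The slope also gave 7 over the 12 treated libraries and 5 at an adjusted p under 0.1, and smaller moves gave it 4 with DESeq2 (SEC61A1 joined, adjusted p = 0.0471) and 3 to 4 with each library left out. At 500 nM SSR2 also passed with only the groups compared (adjusted p = 0.00973, limma), and the count was 3 to 4 with each library left out. The step from 5 to 50 nM gave 2 with DESeq2 and 3 at an adjusted p under 0.1 in place of 1, and 1 to 3 with each library left out. The 9 import genes at 500 nM became 15 when only the groups compared were fitted. The 5 oligosaccharyltransferase genes became 3 with no filter and 2 to 5 with each library left out. The cause of these shifts was not tested, and the counts of the 10 genes here stand without the share of all genes under each alternative.

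The replicate numbers gave no clear pairing of the libraries. Deviations of the 30 same-numbered pairs correlated with r between -0.085 and 0.096, and 7 of 15 libraries correlated best with their own number. The median r was 0.012 for same-numbered pairs and -0.001 for the others. Values this small do not decide whether a weak pairing exists. With the replicate number as a block, 2 genes passed at 50 nM (SSR1 lost, adjusted p = 0.0543) and 4 at 500 nM (SSR2 gained, adjusted p = 0.0464, limma). Scaling moved the median of all genes at 500 nM little, from 0.0027 to 0.0057 on the log2 scale at most. A difference of -0.14 for SEC61G at 500 nM had an SE of 0.091 and was not called, whereas SSR1, with an SE of 0.036, was called at -0.12 at 50 nM.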
